A study of Caenorhabditis elegans with 2 samples.

Results

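The genes described here encode the proteins of the C. elegans cytoplasmic ribosome. The data show where regions called after immunoprecipitation of DAF-12, under a lenient setting, lay around them. Protein-coding genes named rpl- or rps- with a number, together with the stalk genes rla-0, rla-1 and rla-2, gave 81 of 19973 nuclear protein-coding genes in Ensembl release 115 of WBcel235, the assembly that ce11 names. They comprise 47 genes of the large subunit, 31 of the small subunit and 3 of the stalk. The remaining 19892 protein-coding genes served for comparison. Older names of the stalk genes, rpa-1 and rpa-2, belong to other genes in this release and were not used. ChIP-seq had been run on whole L4 larvae, the last larval stage, of strain OP222 (unc-119(ed3) III; wgIs222), whose transgene carries eGFP-tagged daf-12, with males and females pooled. The labels name 2 biological replicates of this 1 group, give daf-12 as the antibody and state no hormone or other treatment. Neither a promoter for the transgene nor the cells that express it are stated, and whole animals mix all tissues.

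A ribosome joins a small subunit, which decodes the mRNA, to a large subunit, which forms the peptide bond. The stalk proteins on the large subunit recruit the translation factors. Ribosomal protein genes are short, are transcribed at high levels in growing tissues, and in C. elegans often lie in operons or beside other genes, and several host snoRNAs in their introns. DAF-12 is a nuclear receptor that binds the bile-acid-like dafachronic acids and sets the choice between dauer and reproductive development. Transcript levels were not analysed here.

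The deposited lists are lenient. They are labelled as peaks with background, meant as input to a reproducibility step, and 1709 of 30000 pooled regions pass a q-value below 0.05. The replicate 1 list holds 30000 regions, of which 5020 pass that q-value. The replicate 2 list holds 23934, of which 14271 pass it, so this cut is far less strict there. Each region carries a signal, whose scale is not stated, so signals and ranks were compared only within a list, with rank 1 the strongest. The replicate lists hold parts of the reads behind the pooled list, so the pooled list is no independent repeat of them. Read depth is unknown, the control library was not analysed here, and neighbouring genes can share a region, so genes are not independent. With 1 group and no counts per sample, no test between conditions exists, and each difference below is a description of these lists.

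A summit just upstream of a transcript start was more frequent at ribosomal protein genes than at other protein-coding genes, though most ribosomal protein genes had none there. A pooled summit lay 0 to 500 bp upstream of a start at 31 of 81 ribosomal protein genes (38.3%), against 21.1% of other protein-coding genes. The replicate 1 list placed such a summit at 29 ribosomal protein genes (35.8%), against 20.5% of other genes. In the replicate 2 list there were 33 (40.7%), against 16.3%. In both replicates the ribosomal protein genes were thus on the same side of the other genes. The opposite order held just inside the gene. A summit 1 to 500 bp downstream of a start was found at 9 ribosomal protein genes in the pooled list (11.1%, against 16.6% of other genes), at 6 in replicate 1 (7.41%, against 16.7%) and at 8 in replicate 2 (9.88%, against 14.4%).

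**Figure D1:**
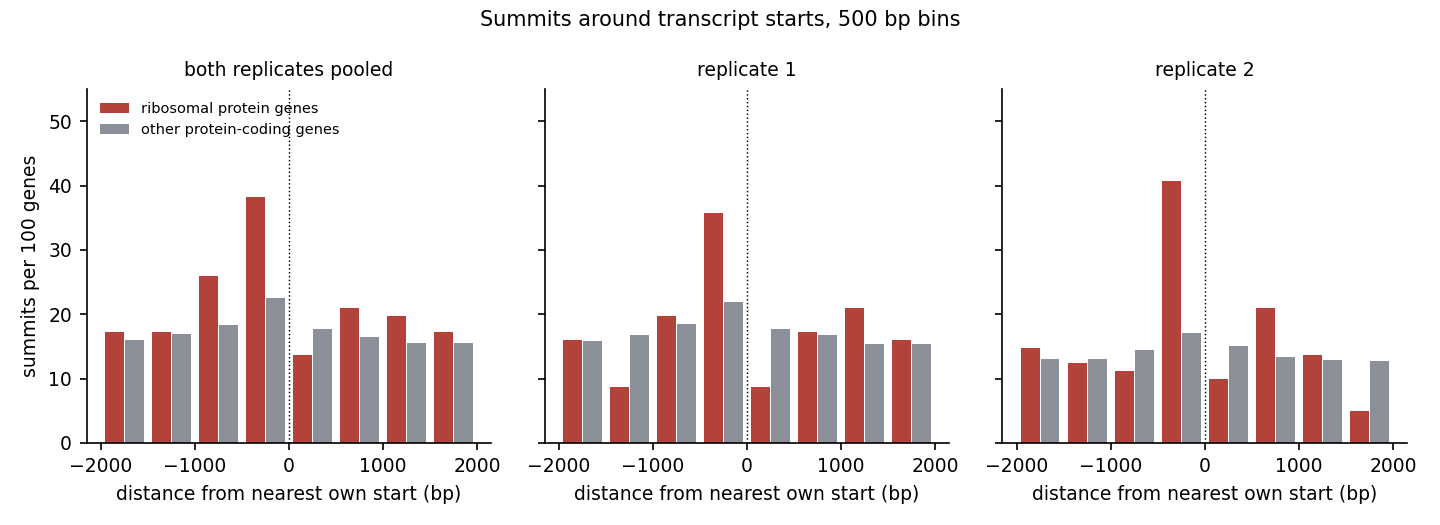
Summits per 100 genes in 500 bp bins of distance from the nearest start of the same gene (negative is upstream), for 81 ribosomal protein genes (red, left bar of each pair) and 19892 other protein-coding genes (grey), in the pooled, replicate 1 and replicate 2 lists. The bin just upstream of the start holds 38.3, 35.8 and 40.7 summits per 100 ribosomal protein genes in these lists, against 22.6, 21.9 and 17.1 per 100 other genes.

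In proportion to other genes, the upstream share was higher among the stronger regions, although the difference in percentage points was smaller. Within the first 5000 pooled regions by signal, 14 ribosomal protein genes (17.3%) had an upstream summit, against 4.19% of other genes. At a pooled q-value below 0.05 there were 8 (9.88%), against 1.39%. These 8 genes were rps-1, rpl-3, rps-19, rla-0, rps-21, rps-2, rpl-11.2 and rpl-28, which include genes of both subunits and of the stalk. An upstream summit in each replicate list was found at 14 ribosomal protein genes (17.3%), against 4.65% of other genes. This count does not require the replicate regions to overlap each other. Of these 14, rps-1, rpl-3, rps-19, rps-21 and rpl-11.2 also belong to the 8. The other 9 were rpl-41.1, rps-24, rpl-23, rps-20, rpl-14, rpl-2, rpl-15, rpl-36.A and rpl-36. At rpl-36.A and rpl-36 the upstream regions of the replicates did not overlap, and at the rest of the 14 they did. The ranks of these upstream regions spread widely, from 490 (rps-1) to 20975 (rpl-23) in replicate 1. In replicate 2 they ran from 768 (rpl-3) to 23506 (rpl-36.A, signal 2.03), where the lowest signal of the list was 2.00. By subunit, 9 of the 14 encode large subunit proteins and 5 small subunit proteins. The upstream interval was singled out after the distances had been seen.

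**Figure D2:**
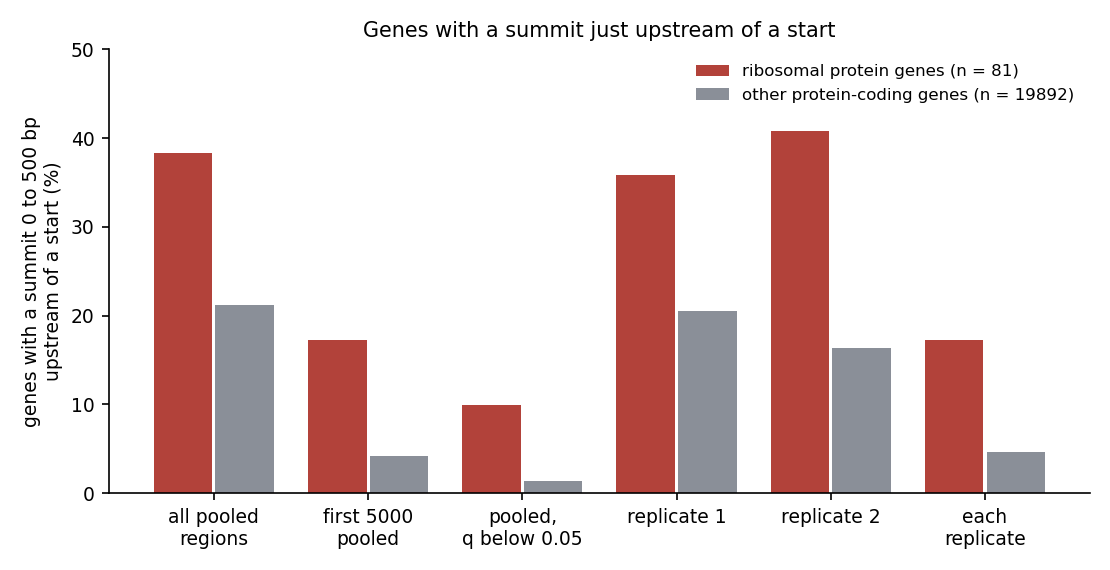
Percent of genes with a summit 0 to 500 bp upstream of a start, for 81 ribosomal protein genes (red, left bar of each pair) and 19892 other protein-coding genes (grey), by the regions counted. The red bar is above the grey bar in every pair, from 38.3% against 21.1% for all pooled regions to 9.88% against 1.39% for pooled regions with a q-value below 0.05.

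The summit windows below show the DNA at some of the upstream regions that ranked among the first 5000. The rest were left out by their place in the genome, not by their signal or sequence. Each runs from 60 bp before to 60 bp after the summit, on the strand of the named gene, as read from the WBcel235 (ce11) genome. Capitals would mark either of the half-site hexamers AGTGCA and AGGACA, in either orientation, which DAF-12 and related receptors are known to bind. The printed windows hold neither hexamer and are therefore wholly in lower case. Among the unprinted upstream regions of the first 5000, that of rpl-1 (rank 3536) held a hexamer in a 201 bp window centred on its summit. The other unprinted ones held none.
rps-1: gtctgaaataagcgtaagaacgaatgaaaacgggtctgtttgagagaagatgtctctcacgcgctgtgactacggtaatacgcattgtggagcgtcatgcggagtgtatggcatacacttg
rpl-3: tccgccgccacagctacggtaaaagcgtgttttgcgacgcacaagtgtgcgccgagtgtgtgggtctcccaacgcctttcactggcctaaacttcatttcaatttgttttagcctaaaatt
rps-21: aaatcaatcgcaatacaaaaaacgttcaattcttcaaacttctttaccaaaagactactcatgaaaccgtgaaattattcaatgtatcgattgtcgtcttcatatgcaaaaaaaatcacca
rps-2: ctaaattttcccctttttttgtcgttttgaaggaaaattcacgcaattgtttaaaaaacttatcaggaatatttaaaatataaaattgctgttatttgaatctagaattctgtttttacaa
rpl-11.2: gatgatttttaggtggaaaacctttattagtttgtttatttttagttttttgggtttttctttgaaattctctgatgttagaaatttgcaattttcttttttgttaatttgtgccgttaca
rpl-28: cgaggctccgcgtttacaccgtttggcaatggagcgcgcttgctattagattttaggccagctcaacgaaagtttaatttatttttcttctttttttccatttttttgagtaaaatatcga
rps-24: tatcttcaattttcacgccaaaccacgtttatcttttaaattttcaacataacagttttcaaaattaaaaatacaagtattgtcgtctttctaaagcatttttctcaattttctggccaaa
rpl-23: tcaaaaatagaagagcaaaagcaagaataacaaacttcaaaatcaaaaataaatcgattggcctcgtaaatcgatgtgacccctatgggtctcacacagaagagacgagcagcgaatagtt
The windows of rps-1 and rpl-3 were the richest in G and C, at 47.1% and 49.6%. Those of rps-2, rpl-11.2 and rps-24 lay lowest, at 24.0%, 25.6% and 27.3%.

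Over all regions the half-site hexamers were no more frequent at ribosomal protein genes. In windows of 201 bp centred on the summit, 14 of 131 pooled regions at ribosomal protein genes held one (10.7%), against 11.1% of 20099 regions at other protein-coding genes. AGTGCA alone was present in 8.40% of windows at ribosomal protein genes, against 6.97%, and AGGACA in 3.05%, against 4.48%. In promoter windows, from 250 bp before to 50 bp after the first start, 16 of 81 ribosomal protein genes held a hexamer (19.8%), against 16.9% of other genes. The median G and C content of the summit windows was 34.8% at ribosomal protein genes and 32.8% at other genes. The strongest regions with a hexamer at ribosomal protein genes, at rpl-4 (pooled rank 2879) and rpl-1 (rank 3536), are not printed. Among the printed windows only that of rpl-29, which encodes a large subunit protein, held one, with the AGTGCA match in capitals. That summit lay 631 bp downstream of an rpl-29 start, in an intron of the adjacent gene thoc-7, a subunit of the THO mRNA export complex, at pooled rank 5180.
rpl-29: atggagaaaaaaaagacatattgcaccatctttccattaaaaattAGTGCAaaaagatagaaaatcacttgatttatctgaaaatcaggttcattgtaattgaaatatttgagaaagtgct

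Within the wider window of 2000 bp around any start, most genes of either kind had a region. A pooled region lay there at 71 of 81 ribosomal protein genes (87.7%), against 74.4% of other genes, and the difference was 13.3 percentage points. Replicate 1 had a region at 64 (79.0%, against 75%) and replicate 2 at 65 (80.2%, against 66.6%). With replicate 1 alone the difference was 3.98 points and with replicate 2 alone 13.6 points. The order turned when each summit was given only to the gene of its nearest start: 39 ribosomal protein genes then had a region (48.1%), against 53.7% of other genes, a difference of -5.59 points. The upstream difference kept its sign under that assignment at 6.93 points, with 24.7% of ribosomal protein genes against 17.8% of other genes. By subunit the pooled counts were 42 of 47 large subunit genes, 26 of 31 small subunit genes and all 3 stalk genes.

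Ribosomal protein genes have closer neighbours than other genes. The start of another protein-coding gene lay within 2000 bp at 90.1% of ribosomal protein genes, against 50.5% of other genes, and a snoRNA start at 23.5%, against 1.59%. They are also short, with a median length of 754 bp, against 2034 bp. A pooled region within 2000 bp was present at 87.7% of the 73 ribosomal protein genes with such a protein-coding neighbour and at 7 of the 8 without one, and for other genes these shares were 74.1% and 74.7%. Of 138 pairs of a ribosomal protein gene and a pooled summit, 58.0% were upstream of the gene, 10.1% within it and 31.9% past its 3′ end. For other genes these shares were 47.2%, 41.5% and 11.3% of 27658 pairs. Among the 59 ribosomal protein genes with another protein-coding start within 1000 bp, 40.7% had an upstream pooled summit, against 22.1% of 4854 other genes so placed. Without such a neighbour the shares were 31.8% of 22 ribosomal protein genes and 20.8% of 15038 other genes. With a snoRNA start within 2000 bp they were 36.8% of 19 ribosomal protein genes and 28.8% of 316 other genes, a smaller gap. Without one they were 38.7% of 62 ribosomal protein genes and 21.0% of 19576 other genes.

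The pooled regions around ribosomal protein genes were 131 distinct intervals, of which 7 were shared by 2 or more of these genes. Their summits fell in intergenic sequence in 61 cases, in introns in 27, in coding exons in 25, in 3′ UTRs in 11, in noncoding exons in 4 and in 5′ UTRs in 3. The nearest start of any gene belonged to a ribosomal protein gene for 50 of them and to another gene for 81. Both placements are given without the shares at other genes, so no difference can be read from them. Of the 131, 29 had their summit in the upstream interval. Of these 29, 26 were intergenic (89.7%), against 65.7% of 4213 upstream regions at other genes. The nearest start of any gene was that of a ribosomal protein gene for 20 of the 29 (69.0%), and that of some other protein-coding gene for 92.0% of the 4213. It was that of any protein-coding gene whose upstream interval held the summit for 79.3% of the 29, against 88.7%. The first of these counts looks for a start among 81 genes in the former case and among 19892 in the latter, so its shares are not alike. By the second count the share was lower at the ribosomal protein genes. A region of both replicates overlapped 13 of the 29 (44.8%), against 18.8% of the upstream regions at other genes. Over all 131 regions that share was 19.1%, against 17.7% at other genes. None of the 29 lacked an overlapping replicate region, against 15.9% of the upstream regions at other genes. Their median pooled rank was 6102, against 14620, and their median signal 7.60, against 5.79.

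The strongest pooled region of the small subunit genes, and of all 81, lay at rps-1, whose protein sits near the mRNA exit of the small subunit. It spanned chrIII:4475473-4475776 (ce11), with its summit 293 bp upstream of the start, a pooled signal of 13.7 and rank 223. The overlapping replicate 1 region had a signal of 9.61 and rank 490, while that of replicate 2 had a signal of 2.08 and rank 22635. The replicates thus placed this region far apart in rank. Its summit also lay in annotated noncoding exons of F56F3.10 and F56F3.11, and the F56F3.11 start was nearer. At rps-21 a region at chrIII:7189961-7190264 had its summit 482 bp upstream, a pooled signal of 11.3 and rank 815, and both replicates had it at low rank, 12429 in replicate 1 and 10643 in replicate 2. The start of the piRNA 21ur-10581 was nearer to that summit than the rps-21 start. At rps-2, which lines the mRNA entry of the small subunit, the region at chrIV:7926381-7926684 had its summit 142 bp upstream, a pooled signal of 10.9 and rank 1063. Replicate 2 overlapped it at rank 5515, and replicate 1 had no region within 2000 bp of rps-2. Here too another start, that of the ncRNA gene C49H3.15, was nearer to the summit.

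Regions lay on both sides of rps-19, a small subunit gene needed for subunit maturation in other species. A region of signal 12.6 and rank 410 had its summit 776 bp downstream of the start, past the 3′ end, and a region of signal 11.9 and rank 616 had its summit 222 bp upstream. The upstream one was overlapped in replicate 1 at rank 1797 and in replicate 2 at rank 18211. The downstream one was overlapped at rank 3180 in replicate 1 and rank 224 in replicate 2. Each replicate therefore ranked a different side of rps-19 higher. At rps-24, also of the small subunit, the region at chrIV:385615-385918 had its summit 120 bp upstream, signal 8.93 and rank 2980, with overlapping regions at rank 19698 in replicate 1 and 4993 in replicate 2. At rps-20 the summit lay 91 bp upstream, with signal 8.38 and rank 4046. Its overlapping regions stood at rank 11439 of 30000 in replicate 1 and 11360 of 23934 in replicate 2. The strongest region at rps-18 (signal 9.58) had its summit 1813 bp downstream, in a coding exon of hhat-2. The strongest regions at rps-13 (8.0) and rps-27 (7.33) lay 952 bp downstream and 1674 bp upstream.

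Among large subunit genes the strongest region was at rpl-3, whose protein reaches towards the peptidyl transferase centre. It spanned chrIII:3867461-3867764, with its summit 241 bp upstream, a pooled signal of 13.5 and rank 246. Both replicates held it high, at rank 966 with signal 8.58 in replicate 1 and rank 768 with signal 6.09 in replicate 2. No other gene has a start within 2000 bp of rpl-3, and its own start was the nearest. At rpl-11.2, whose protein joins the 5S rRNA particle, the region at chrX:2242563-2242866 had its summit 97 bp upstream, a pooled signal of 10.7 and rank 1190, with rank 1098 in replicate 1 and 5670 in replicate 2. At rpl-28 the region at chrV:12728273-12728576 had its summit 313 bp upstream, a signal of 10.2 and rank 1471, with replicate 2 at rank 1585 and no overlapping replicate 1 region. The start nearest to that summit was that of mrpl-49, a mitochondrial ribosomal protein gene.

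The other large subunit genes with strong regions were placed less uniformly. At rpl-9 the summit lay 1123 bp downstream (signal 10.5), with replicate 1 at rank 807 and no overlapping replicate 2 region. One region of signal 10.4 was shared by rps-14, 794 bp downstream of its start, and rpl-36, 1457 bp upstream of its start. A region of signal 9.56 was shared by the tandem pair rpl-41.1 and rpl-41.2, 362 bp and 1464 bp upstream of their starts, and it was overlapped in both replicates. At rpl-25.1 the strongest region had its summit 1167 bp downstream (signal 9.53), with replicate 2 at rank 215 and no replicate 1 region. The strongest regions at rpl-7 (9.34), rpl-14 (9.11), rpl-6 (8.83), rpl-23 (8.47) and rpl-2 (6.82) had summits 477 bp downstream, 1994 bp downstream, 762 bp upstream, 345 bp upstream and 400 bp upstream, in that order. The strongest replicate 1 region of all 81 genes, at rpl-35 with a signal of 11.3 and rank 177, had no overlapping replicate 2 region. Its pooled rank was 7353, and its summit in replicate 1 lay 520 bp upstream.

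Of the stalk genes, rla-0, the base on which the other stalk proteins assemble, had the strongest region. The summit lay 418 bp upstream, with a pooled signal of 11.6 and rank 717. Replicate 2 overlapped it at rank 10347 and replicate 1 did not. At rla-1 the region lay 1643 bp upstream (signal 7.97), nearest to the start of phb-1, a mitochondrial prohibitin gene, and replicate 2 had no region. At rla-2 the region lay 1168 bp upstream (signal 5.0), again without a replicate 2 region.

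Paralogs that share a number differed in these lists for rpl-11, rpl-24 and rpl-25, while rpl-41.1 and rpl-41.2 had the same strongest pooled region. Whereas rpl-11.2 had a pooled region at rank 1190, rpl-11.1 had no pooled or replicate 2 region and its strongest replicate 1 region was at rank 4320. At rpl-25.2 the strongest pooled signal was 4.77, against 9.53 at rpl-25.1. At rpl-24.1 it was 7.27, with the summit 1236 bp downstream in a coding exon of D1007.10, whereas rpl-24.2 had no region in any list. RefSeq calls rpl-24.2 rsl-24D1, after a family that acts in ribosome assembly in yeast. The genes with no region in any list were rpl-13, rpl-24.2 and rps-17, 3 of 81, against 8.43% of other genes.

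The strongest pooled signal per gene was slightly higher at ribosomal protein genes, with a wide overlap. Its median was 7.23 over the 71 ribosomal protein genes with a region (quartiles 5.55 and 9.08), against 6.55 over 14798 other genes (quartiles 5.34 and 8.18). In replicate 1 the medians were 5.21 and 4.85, and in replicate 2 they were 3.75 and 3.36. The large subunit genes had a median of 7.07, the small subunit genes 7.60 and the stalk genes 7.97. The highest value, 13.7, was under the highest among other genes, 30.8. Among regions within 2000 bp of a start, 11 ribosomal protein genes had one with a pooled q-value below 0.05 (13.6%, against 7.24%) and 27 had one of the first 5000 (33.3%, against 20.3%). Of those 11 genes, 8 (72.7%) had it upstream within 500 bp, against 19.2% of the 1441 other genes. None of the 81 had a nuclear peak that passed the reproducibility threshold, against 0.0855% of other genes, which is 17 genes. The list of such peaks holds only 21 nuclear ones, so no difference can be read from this count. The lowest signal of that list was 19.8.

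**Figure D3:**
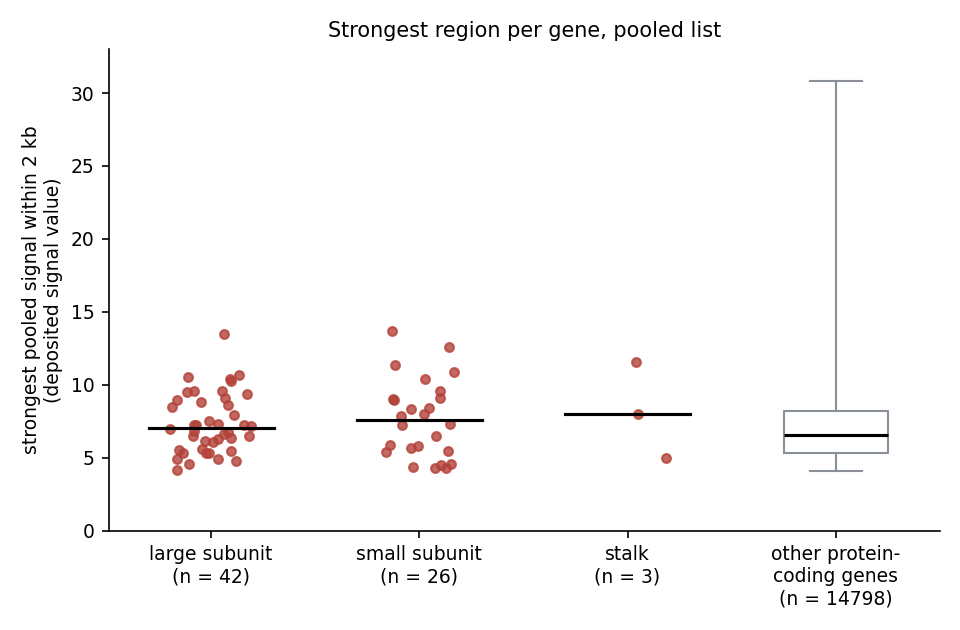
Strongest pooled signal within 2000 bp of a start (deposited signal value, linear axis) for each ribosomal protein gene with a region, by subunit (red points, black line at the median), and for 14798 other protein-coding genes (box from lower to upper quartile, black line at the median, whiskers at the lowest and highest value). The medians are 7.07, 7.60 and 7.97 for the large subunit, the small subunit and the stalk, and 6.55 for other genes, whose whisker reaches 30.8.

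The replicates overlapped only in part. A region of each replicate within 2000 bp was present at 51 ribosomal protein genes (63.0%), against 52.5% of other genes. Regions that overlapped between the replicates by at least 1 bp were present at 24 (29.6%), against 20.7%. Summits within 100 bp of each other were present at 16 (19.8%), against 9.69% of other genes. Over the 51 genes the strongest signals of the replicates had a Spearman rho of 0.017, and over 10434 other genes 0.071. These genes share libraries, and some share regions.

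Other translation genes were set beside them. Of 70 mitochondrial ribosomal protein genes, 84.3% had a pooled region and 27.1% an upstream summit, but only 3 (4.29%) had one among the first 5000, against the 17.3% of ribosomal protein genes. Of 34 initiation factor genes, 76.5% had a region and 20.6% an upstream summit, with 3 (8.82%) among the first 5000. Of 6 elongation factor genes, 2 had an upstream summit and none of these was among the first 5000. Of 3 further genes, the ubiquitin fusion genes ubl-1 and ubq-2, whose products release a ribosomal protein, and rack-1, which encodes a scaffold on the small subunit, 2 had an upstream summit (66.7%) and 1 had one among the first 5000 (33.3%). The strongest summit at ubq-2 lay 386 bp upstream at rank 2789. At ubl-1 it lay 1021 bp downstream at rank 9432, with a weaker summit upstream, and at rack-1 it lay 1834 bp downstream at rank 5005, with none upstream. Of 13 actin, tubulin, gpd and hsp-1 genes, which are also strongly transcribed, 6 (46.2%) had an upstream summit and 2 (15.4%) had one among the first 5000. These were hsp-1, an hsp70 chaperone gene, with a signal of 16.7 at rank 83, 328 bp upstream, and act-2, an actin gene, with a signal of 9.48 at rank 2179, 65 bp upstream. Of 72 genes named his-, nearly all histone genes, 44.4% had a region and 2.78% an upstream summit. Several of these names occur more than once in the list, mostly without a pooled region, and neighbouring his- genes shared regions. Whether reads could be placed uniquely at such genes was not tested. The upstream share of ribosomal protein genes was under that of the actin, tubulin, gpd and hsp-1 list and of the 3 ubiquitin fusion and rack-1 genes, and above that of the other 4 lists.

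**Figure D4:**
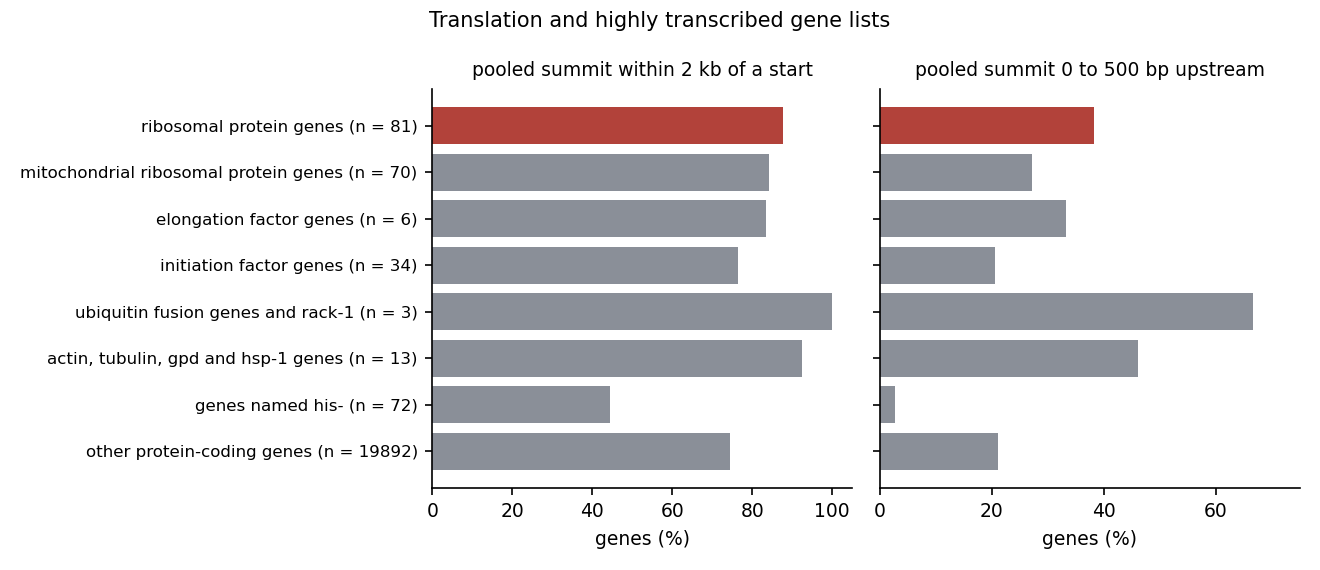
Percent of genes with a pooled summit within 2000 bp of a start (left) and 0 to 500 bp upstream (right) in ribosomal protein genes (red), 6 other lists and other protein-coding genes (grey). The ribosomal protein genes stand at 87.7% and 38.3%, the genes named his- at 44.4% and 2.78%, and other protein-coding genes at 74.4% and 21.1%.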

How the data were processed

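Signals and −log10 q-values are the authors' deposited values per region in the ce11 lists, called per replicate and on both replicates pooled, per the labels. How reads were aligned, which peak caller was used, on what scale the signal is and where the reproducibility threshold was set: not given in the sources used here. The ce10 lists were not used. Summits were set against every transcript start of nuclear protein-coding genes in Ensembl release 115, within 2000 bp, counting a summit for each gene in reach. The distance is to the nearest start of that gene. Coordinates are 1-based, and 0 regions ran past a chromosome end. Hexamers were searched on both strands. The assignment of summits was checked against a direct search. RefSeq symbols matched all 81 genes and differed for 20. Genes named are those with the 15 largest pooled signals, up to 10 more with overlapping replicate regions, those with no region, the stalk genes and the paralogs sharing a number. rpl-35, rpl-1, rpl-4 and genes counted in small groups were named after their values were seen. The members and gene lists were chosen with earlier results of these data known. No significance test was run. Python 3.11.15, numpy 2.4.6, pandas 2.3.3, scipy 1.17.1 and matplotlib 3.10.9 were used. Alternatives changed the window, the starts, the assignment, the regions, the chromosomes and the replicate.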

Additional observations from a re-analysis of the deposited data

How the results depend on the processing

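The count of 71 ribosomal protein genes with a pooled region moved to 36 within 500 bp, to 39 with each summit at its nearest start only, to 11 at a q-value below 0.05 and to 27 in the first 5000 regions. In that order these were 44.4%, 48.1%, 13.6% and 33.3% of the 81, against 34.4%, 53.7%, 7.24% and 20.3% of other genes. Without 1 replicate the count ranged from 64 to 65. The difference of 13.3 percentage points from other genes reversed to -5.59 with the nearest start only, and ranged from 3.98 without replicate 2 to 13.6 without replicate 1. The median strongest signal of 7.23 moved to 10.9 at a q-value below 0.05 and to 9.56 in the first 5000, and ranged from 3.75 to 5.21 within single replicates, whose scales differ. The count of 51 with a region of both replicates moved to 19 within 500 bp, to 15 at a q-value below 0.05, to 6 in the first 5000, to 24 for overlapping regions and to 16 for summits within 100 bp. In that order these were 23.5%, 18.5%, 7.41%, 29.6% and 19.8% of the 81, against 11.5%, 11.4%, 5.61%, 20.7% and 9.69% of other genes. The median distance of -201 bp stayed upstream under every alternative. It is given without the value at other genes, so no difference can be read from it. The upstream difference of 17.1 points and its alternatives were chosen after seeing the data. It ranged from 6.93 with the nearest start only to 22.0 on chromosomes II to V only, and from 15.3 without replicate 2 to 24.4 without replicate 1. The cause of the reversal was not tested. No paired analysis was possible because only a single group was profiled. Depth is unknown, so precision per region cannot be given.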
